A study of Mus musculus with 13 samples.

Results

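The cells compared here are untreated mouse embryonic stem cell (ESC) lines of a pair of genotypes, before any gene was deleted. Both genotypes are homozygous for floxed Jmjd2a and Jmjd2c alleles and carry the tamoxifen-inducible recombinase CreERT2 at Rosa26, and the 2abc genotype has floxed Jmjd2b alleles in addition. The members were chosen by label alone. They are the 6 untreated samples of the series' 12, with 1 array each: cl4, cl5 and cl6 of the 2ac genotype, and cl280.4 with both cl324 lines (cl324.9, cl324.13) of the 2abc genotype (3 and 3), and their 2 groups differ by design only in whether Jmjd2b is floxed. All lines came from C57Bl/6 mice and grew on gelatin, without serum, in N2B27 to which LIF and inhibitors of MEK (PD0325901) and GSK3 were added. A line is the unit of replication here. The labels call cl4 a clone once and do not say whether each line came from its own embryo, how cl324.9 and cl324.13 are related, or the sex of any line. For cl4 the array of a second hybridisation was used, since the labels call the first one suboptimal. The OHT arrays of the same 6 lines (500 nM OHT for 12 days and 6 further days of culture, after deletion of the floxed genes) served only to describe whether a difference between lines was also seen in a second culture.

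Cells held with MEK and GSK3 inhibitors and LIF correspond to the naive epiblast of the preimplantation embryo. Pou5f1, Sox2 and Nanog, Esrrb, Tfcp2l1 and the Klf factors maintain that state. A few cells in such cultures pass through a 2-cell-like state marked by Zscan4, ESC lines can differ in their imprints and in their sex chromosomes, and XX lines are known to lose an X chromosome or DNA methylation in culture. A floxed allele is meant to work like the normal gene until Cre removes the marked exons, so Jmjd2 demethylases, which act on methylated lysines 9 and 36 of histone H3, should be intact in all the cells described here.

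The 5 regions printed first carry the results that turn on single genes. They are the 250 bases before the start of Ascl2, the only named gene that passed the test, and of 2 pairs of near copies from the Xlr4 and Xlr5 families, which were among the named genes lowest in 2abc or lie beside them. All come from RefSeq on build GRCm38.p6, Ascl2 at chr7:142969265-142969514 on the minus strand, Xlr4a at chrX:73082508-73082757 on the minus strand, Xlr4b at chrX:73214083-73214332 on the plus strand, Xlr5a at chrX:73117703-73117952 on the minus strand, Xlr5b at chrX:73148591-73148840 on the plus strand. They are written 5′ to 3′ along the gene, with CG dinucleotides, where DNA methylation of mammals lies, in capitals.
Ascl2: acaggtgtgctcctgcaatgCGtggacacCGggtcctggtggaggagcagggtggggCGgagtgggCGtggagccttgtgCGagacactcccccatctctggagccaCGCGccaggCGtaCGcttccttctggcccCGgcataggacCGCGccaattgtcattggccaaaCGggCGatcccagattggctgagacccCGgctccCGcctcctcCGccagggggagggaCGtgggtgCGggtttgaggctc
Xlr4a: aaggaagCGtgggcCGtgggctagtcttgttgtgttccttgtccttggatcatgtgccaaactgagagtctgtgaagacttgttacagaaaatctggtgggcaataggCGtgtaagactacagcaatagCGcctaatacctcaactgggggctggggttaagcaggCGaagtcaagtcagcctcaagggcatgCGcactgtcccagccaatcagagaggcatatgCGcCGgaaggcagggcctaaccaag
Xlr4b: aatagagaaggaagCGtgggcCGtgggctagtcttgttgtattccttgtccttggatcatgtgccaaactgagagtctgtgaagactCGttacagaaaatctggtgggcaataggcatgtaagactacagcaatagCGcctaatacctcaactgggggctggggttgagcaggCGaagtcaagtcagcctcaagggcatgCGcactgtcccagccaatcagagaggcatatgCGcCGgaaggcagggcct
Xlr5a: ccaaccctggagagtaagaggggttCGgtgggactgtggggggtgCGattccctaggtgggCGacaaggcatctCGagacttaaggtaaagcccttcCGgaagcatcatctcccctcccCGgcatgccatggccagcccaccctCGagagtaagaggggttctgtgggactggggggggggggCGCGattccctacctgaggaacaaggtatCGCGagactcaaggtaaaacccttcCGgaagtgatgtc
Xlr5b: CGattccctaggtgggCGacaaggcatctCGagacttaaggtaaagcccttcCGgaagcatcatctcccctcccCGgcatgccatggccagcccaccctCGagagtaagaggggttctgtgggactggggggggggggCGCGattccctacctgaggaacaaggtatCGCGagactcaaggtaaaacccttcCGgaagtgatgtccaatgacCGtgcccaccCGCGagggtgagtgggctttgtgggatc
The Ascl2 window has 19 CG dinucleotides, and 19.7% of the 32851 such windows in the table have at least as many. The Xlr windows have 8 (Xlr4a and Xlr4b), 12 (Xlr5a) and 14 (Xlr5b), against a median of 6 over all windows. In a global alignment Xlr4a and Xlr4b were identical at 95.6% of positions and Xlr5a and Xlr5b at 82.0%, whereas Ascl2 and Xlr4a matched at 49.6%. Transcripts of such near copies can bind the same probes, so the Xlr members are described together below, and none of their values is certain to belong to a single gene.

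Signals are given as log2 of the background-corrected spot signal relative to the array's 75th percentile, so 0 is a fairly bright probe, each unit is a doubling, and levels of different probes are not comparable. The arrays gave 50.9 to 63.9% of 55681 probes well above background, and 22482 features, 14400 of them with a gene symbol, were tested. The 3 2abc arrays and the array of cl6 were on 1 slide, while cl4 and cl5 were each on another, so differences from cl6 are given for the genes the results turn on. A second technical split crossed the genotypes. The arrays of cl280.4 and cl6 lay in the first row of the slide and the other 4 in the second, and the median of probes not above background was -7.18 and -6.75 in the first row against -6.24 to -5.93 in the second. The part of this split in the values of dim probes was not tested.

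All 6 lines expressed the markers of ESCs. All 10 ESC markers (such as Pou5f1, Nanog, Sox2, Esrrb, Zfp42 and Tfcp2l1) were measured, and their summed linear signal was 715, 746 and 726 times the 75th percentile in the 2abc lines and 823, 718 and 736 in the 2ac lines. Esrrb lay between 7.07 and 7.18 in the 6 lines and Nanog between 5.03 and 5.29. For markers of other cell types, whose probes and numbers differ so that the sums cannot be set against those, the summed signal was 2.52 to 4.48 for the 4 of 8 fibroblast markers that passed the filter, 0.734 to 0.944 for 4 of 7 primitive endoderm markers, 1.49 to 2.42 for 2 of 6 trophectoderm markers, 3.59 to 5.75 for 3 of 5 neural markers and 0.0951 to 0.155 for 1 of 5 blood markers. The fibroblast markers Col3a1, Postn, Dcn and Lum, the trophectoderm markers Cdx2, Elf5 and Hand1, and the blood markers Ptprc, Cd52 and Tyrobp did not pass.

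The floxed genes were expressed in all 6 lines. Kdm4a (Jmjd2a) was at 2.91, 2.93 and 2.93 in the 2abc lines and at 2.91, 2.92 and 2.98 in cl4, cl5 and cl6. Kdm4b (Jmjd2b), floxed in the 2abc lines alone, was at 2.72, 2.72 and 1.98 against 2.31, 2.33 and 2.38. The groups overlapped, since cl324.13 lay below all the 2ac lines and the other two 2abc lines above them, and the difference was 0.13 with a standard error (SE) of 0.21 (adjusted p = 0.72 in limma), and 0.09 from cl6. Kdm4c (Jmjd2c) was at 2.80, 2.50 and 2.38 against 2.30, 2.35 and 2.33, so the 2abc lines all lay above the 2ac lines, but the difference of 0.23 (SE 0.12) did not pass (adjusted p = 0.273). Kdm4d, which was not targeted, was too dim to be tested. The 50 measured genes nearest to each floxed gene were compared as well. Their median difference, 2abc minus 2ac, was -0.01 around Kdm4a, 0.08 around Kdm4b and -0.02 around Kdm4c, and 0 of them were called by limma at an adjusted p under 0.05. A gene is called apart below where all 3 values of one genotype lie above all 3 of the other. Around Kdm4b 12 of the 50 were apart and higher and 6 lower, around Kdm4a 6 and 3 and around Kdm4c 10 and 10, where 11.7% and 21.7% of all features were apart. Around Kdm4b the lowest p-values among the neighbours were those of Sema6b (0.60, adjusted p = 0.0649), the lipid-droplet gene Plin5 (0.53, adjusted p = 0.0803) and Lrg1 (-0.76, adjusted p = 0.0859), all 9 to 11 genes away.

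Few single features passed the test between the genotypes. At an adjusted p under 0.05 limma called 2 of 22482 features (0.0089%), 1 in each direction, although 5881 (26.2%) had an unadjusted p under 0.05. The lowest adjusted p after these was 0.0502, and 2199 features had one under 0.1. Both calls were lost on leaving out any line except cl6, with adjusted p-values of 0.0929 to 0.162 in limma, and kept without cl6 (0.0427 each), where 469 features were called, 86 of them higher in 2abc. The differences themselves stayed as large, at 1.19 to 1.25 and -1.28 to -1.39 with any line left out.

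Ascl2, a basic helix-loop-helix factor of the trophoblast lineage whose maternal allele is expressed in the placenta, was the one named gene called. Its signal was 2.71, 2.62 and 2.58 in the 2abc lines against 1.36, 1.42 and 1.45 in cl4, cl5 and cl6. The mean was 2.63 ± 0.07 (SD, n = 3) against 1.41 ± 0.05 (SD, n = 3), a difference of 1.22 (SE 0.08, adjusted p = 0.0316 in limma), which is 2.33-fold. The difference from cl6 on the shared slide was 1.18, and the 3 2ac lines differed by less than 0.1 although they came from 3 slides. The call was lost with the slide as a block (adjusted p = 0.384 in limma, and 0.272 in a fit on 12 arrays), with the array row as a block (0.0791) and with the cl324 lines counted as 1 sample (0.118), at differences of 1.18 to 1.32. In the OHT arrays Ascl2 was at 1.67, 0.69 and 0.99 against 0.95, 0.71 and 0.48, so there the groups overlapped. The other call was a transcript known by an Ensembl identifier only, ENSMUST00000065124. It was at -1.70, -1.84 and -1.92 against -0.46, -0.52 and -0.50, a difference of -1.33 (SE 0.09, adjusted p = 0.0316 in limma) and of -1.32 from cl6, and after OHT the 2abc lines again lay below the 2ac lines (difference -0.98).

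Without the p-value, 2638 features (11.7% of those tested) were apart and higher and 4875 (21.7%) apart and lower in 2abc. The split depends on the scaling of the arrays. Of the features apart, 35.1% were higher with the 75th percentile, 46.4% after quantile normalisation, 55.6% in the authors' deposited table and 90.3% with scaling by the median, which moved the median difference of all features from -0.04 to 0.26. Counts of higher and lower members in any list are to be read against these shares. At 2-fold or more, 22 features (0.0979%) were higher and 287 (1.28%) lower. Of the 22, 13 also differed 2-fold or more from cl6, and of the 287, 98 did. Only 54 of the 287 were well above background on all 6 arrays, against 12 of the 22, so most of the lower ones were dim in at least 1 line. Among the OHT arrays of the same lines, 45.5% of the 22 were apart in the same direction, where 12.8% of all features were, and 28.6% of the 287, where 16.6% of all were.

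The 12 named genes highest in 2abc against both the 2ac lines and cl6 included Ascl2 and 11 others, none of which was called. Man1c1, a mannosidase of the Golgi, was at -0.91, -1.15 and -1.10 against -1.93, -2.25 and -2.19 (difference 1.08, SE 0.12, adjusted p = 0.0533). Mn1, a transcriptional regulator, was at -0.80, -0.84 and -0.55 against -1.69, -1.84 and -1.72 (difference 1.02, SE 0.11, adjusted p = 0.0533). They differed from cl6 by 1.15 and 0.99, and the lines of each genotype lay close together. Both genes stayed apart in the OHT arrays (differences 0.83 and 1.01). The signalling ligand Wnt6 differed by 1.03 (SE 0.16, adjusted p = 0.0586), the homeobox gene Mkx by 1.01 (SE 0.18, adjusted p = 0.0657), the BTB-domain gene Kctd21 by 1.31 (SE 0.25, adjusted p = 0.0677) and the retinaldehyde dehydrogenase Aldh1a3 by 1.09 (SE 0.26, adjusted p = 0.0815). From cl6 these 4 differed by 1.14, 1.26, 1.22 and 1.13. Of the 4, Mkx and Kctd21 were apart in the OHT arrays too (1.21 and 1.24). In the remaining ones a single line was far from the rest. 1700003M07Rik was at -0.40 and the olfactory receptor gene Olfr1496 at -1.45 in cl324.13, the homeobox genes Tlx1 and Irx3 were at -1.45 and -0.53 in cl324.9, all far above the other lines. Irx3 was nevertheless apart after OHT, at -1.29, -1.24 and -0.85 against -2.33, -2.62 and -3.01 (difference 1.53). Gm20736, on chromosome Y, was at -5.49 in cl6 against -3.37 to -2.43 elsewhere. Kctd21, 1700003M07Rik, Tlx1 and Gm20736 were well above background in 2 of 3 2ac lines and Olfr1496 in 1 of 3. They passed the filter on dim probes through the 2abc lines alone.

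**Figure D1:**
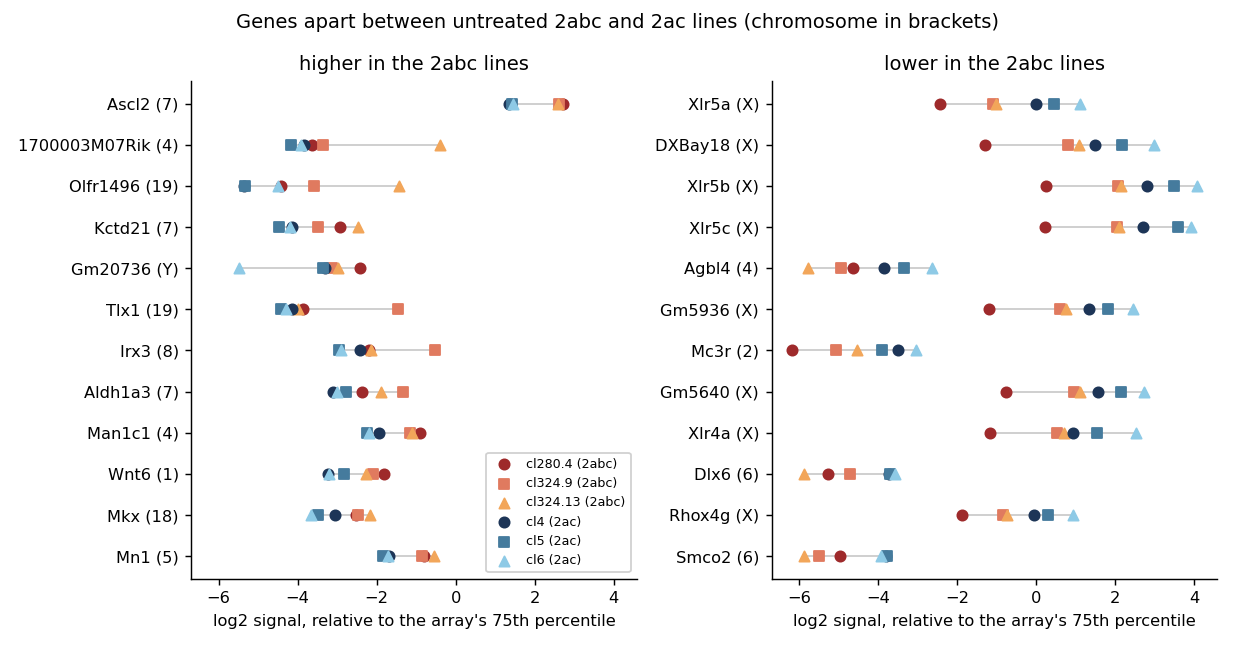
Each point is 1 untreated line, with log2 signal relative to the array's 75th percentile on the horizontal axis and the 12 genes of each direction on the vertical axis, warm colours for 2abc and blue for 2ac. In Ascl2, Man1c1 and Mn1 the lines of a genotype sit together and apart from the other genotype, in Tlx1 and Olfr1496 a single line is far out, and in the Xlr genes the 6 lines form a graded series.

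Among the 12 named genes lowest in 2abc, 8 were on chromosome X. The others were the carboxypeptidase Agbl4 (difference -1.84, SE 0.40, adjusted p = 0.0747, well above background in 1 of 3 2abc lines), Smco2 (-1.61, SE 0.22, adjusted p = 0.0565, likewise in 1 of 3), the melanocortin receptor Mc3r and the homeobox gene Dlx6. Mc3r and Dlx6 were not well above background in any 2abc line and were so in all 2ac lines. Agbl4 and Smco2 were so in all 2ac lines too. All of them thus passed the filter on dim probes through the 2ac lines alone. They were then ranked by the same difference, so their values are description only. With the dim side set to no less than each array's lowest signal well above background, Mc3r was at least 1.97-fold and Dlx6 at least 1.72-fold brighter in the 2ac lines. The measured means were -5.25 against -3.48 for Mc3r (adjusted p = 0.0852) and -5.28 against -3.67 for Dlx6 (adjusted p = 0.0609).

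Most of these X-linked genes came from 1 stretch of the chromosome. The Xlr3, Xlr4 and Xlr5 genes belong to a family of X-linked lymphocyte-regulated genes related to the synaptonemal complex protein Sycp3, and some of them are imprinted in brain. In the order of the gene table, 9 measured genes follow one another from Xlr4a to Xlr5c, 7 of them Xlr genes. The lines formed the same order in these 7, except that cl4 and cl324.13 changed places in Xlr4b. Xlr5b was at 0.24, 2.07 and 2.15 in the 2abc lines and at 2.80, 3.50 and 4.07 in the 2ac lines (difference -1.97, SE 0.58, adjusted p = 0.109, and -2.59 from cl6). Xlr3b was at 1.53, 2.82 and 3.03 against 3.46, 3.86 and 4.57 (difference -1.50, SE 0.46, adjusted p = 0.116), and its second kept probe ordered the lines in the same way. Xlr4b was at -0.58, 0.92 and 1.24 against 1.17, 1.75 and 2.94, so that here cl4 lay just below cl324.13 and the groups overlapped. The lowest line was cl280.4 and the highest cl6, with cl5 next below cl6, and the lowest and highest line of each genotype differed by more than 1 unit, while cl324.9 and cl324.13 were close to each other. Xlr5b and Xlr5c had almost the same value in every line.

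**Figure D2:**
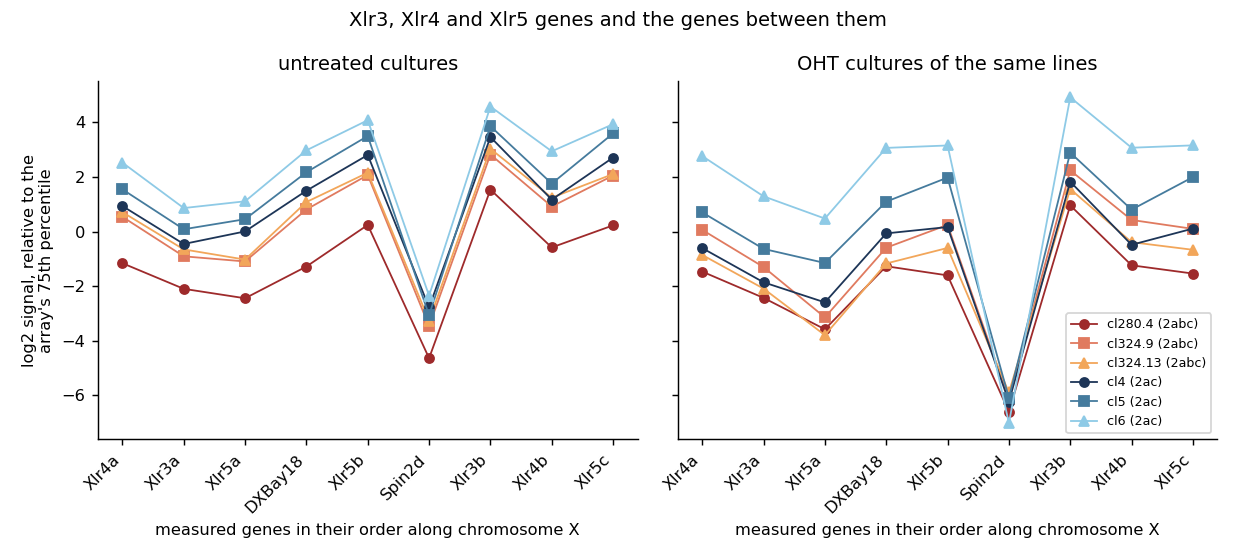
The horizontal axis gives 9 neighbouring measured genes in their order along chromosome X and the vertical axis log2 signal relative to the array's 75th percentile, 1 line of points for each ESC line, with untreated cultures on the left and OHT cultures on the right. In the untreated cultures cl280.4 is the lowest and cl6 the highest for every gene shown, and cl6 is also highest in the OHT cultures for all but Spin2d.

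Including DXBay18, which lies between them, and Gm5640 and Gm5936 further along the chromosome, 10 genes had this pattern. In all 10 cl280.4 was the lowest line, cl5 the second highest and cl6 the highest, and cl6 exceeded cl280.4 by 2.96 to 4.25 on the log2 scale. Over the 10 the differences were -2.04 to -1.38 (adjusted p of 0.0769 to 0.2 in limma), and 9 of them were apart and lower in 2abc. In the OHT arrays cl6 was again the highest in 10, cl5 the second in 10 and cl280.4 the lowest in 8. The extremes were thus largely the same lines after OHT, but 5 of the 10 were apart and lower there, and cl324.9 lay above cl324.13 in each Xlr gene, the reverse of the untreated order. Genes were added to this set after their values were seen, and no test was made of the set.

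The Rhox genes, a cluster of X-linked homeobox genes of germ cells and placenta, had a like order of lines in the untreated cultures. Of 16 measured members 15 had a difference below 0 (range -1.54 to 0.15, median -0.60), 5 were apart and lower, and none was called. The lowest line was cl280.4 in 11 of the 16 and the highest cl6 in 10. Rhox4g was at -1.88, -0.84 and -0.73 against -0.06, 0.29 and 0.94 (difference -1.54, SE 0.38, adjusted p = 0.0849). Rhox5, the brightest probe among them and a gene silenced by DNA methylation in many cells, ranged from 6.36 in cl280.4 to 7.37 in cl6. In the OHT arrays cl6 was the highest line in 13 of the 16, but cl280.4 was the lowest in 0. These families, too, hold near-identical copies (Rhox2, Rhox3 and Rhox4).

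Line cl6 differed from the other 5 in the expression of genes on the sex chromosomes. Eif2s3y, which encodes a translation initiation factor subunit from chromosome Y, was at 3.85, 3.47 and 3.22 in the 2abc lines, 3.28 and 3.20 in cl4 and cl5, and -7.28 in cl6. The helicase gene Ddx3y was at 1.65 to 2.24 in these 5 lines and -7.15 in cl6, and the zinc-finger gene Zfy1 at -2.53 to -1.58 and -5.41. In cl6 none of these 3 probes was well above background, and in the OHT array of cl6 they were at -7.38, -7.20 and -6.97. The other 5 lines expressed all 3 genes. A difference between the genotypes at these genes is a difference between cl6 and the rest, and with the slide as a block, which sets the 2abc lines against cl6 alone, limma called Eif2s3y and Ddx3y and nothing else. In that fit cl4 and cl5 add nothing, the spread comes from the 2abc lines only, and cl6 is a lone sample assumed to vary as they do.

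Genes of chromosome X were somewhat higher in cl6. Over 620 X-linked features the median of cl6 minus the median of the 6 lines was 0.149, against -0.06 to 0.03 in the other lines and -0.06 to 0.07 for any line on any autosome. In cl6 46.6% of X-linked features had the highest value of the 6 lines, against 14.9% of autosomal ones. Without the 10 Xlr-type genes the median was 0.145, and in the OHT array of cl6 it was 0.731. The median under other settings was 0.08 with scaling by the median, 0.10 in the authors' deposited table and after normexp correction, and 0.11 without a filter on dim probes. The X-linked partners of the Y genes were mixed. Ddx3x was at 5.34 in cl6, inside the range of the 2ac lines, and its second probe was highest in cl6 (4.03, against 3.78 to 3.97). For Eif2s3x the brighter probe was at 2.26 in cl6 and 3.27 to 3.8 in the other lines, whereas its second probe was at 2.26 in cl6 and 1.88 to 2.12 in the others, so the probes disagreed in direction. Kdm6a, which escapes X inactivation, was at 0.82 in cl6 and 0.28 to 0.62 elsewhere. Kdm5c was at 3.85 in cl6, below the 2abc lines (3.91 to 4.09) and above cl4 and cl5 (3.79 and 3.67). Xist did not pass the filter on dim probes.

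**Figure D3:**
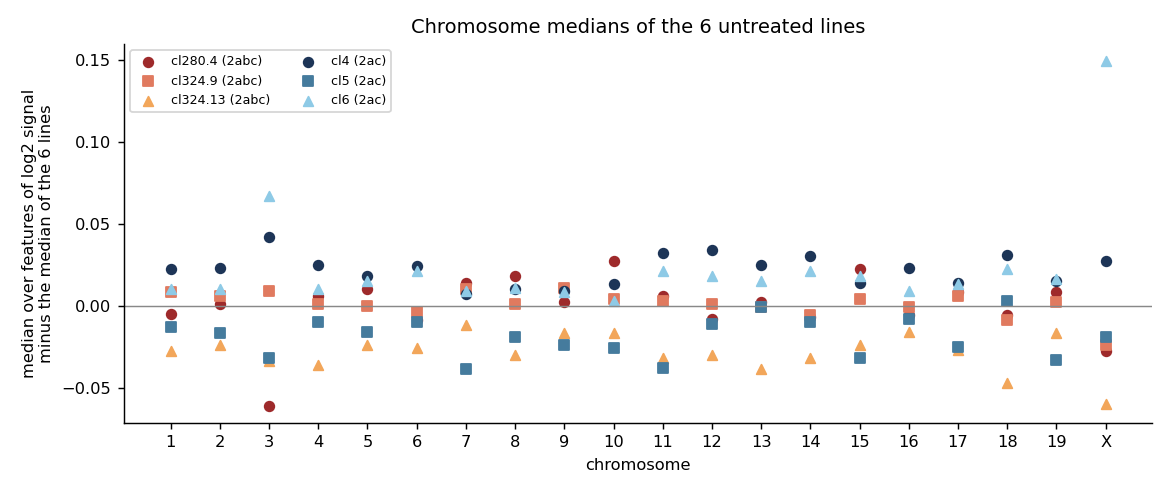
For each chromosome, the median over its features of each line's log2 signal minus the median of the 6 lines, with 1 point per line. The points of all autosomes lie between -0.061 and 0.067, and the point of cl6 on chromosome X is at 0.149.

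The differences of X-linked genes lay below those of all features. The median X-linked difference, 2abc minus 2ac, was -0.13, against -0.04 over all features. It was -0.22 against cl6 and -0.07 against cl4 and cl5, so much of it came from cl6. With scaling by the median it was 0.17, where all features were at 0.26, and in the authors' deposited table -0.05 against 0.01. On X 23.9% of features were apart and lower and 3.39% higher, against 21.7% and 11.7% of all. Of 15 X-linked genes named in studies of X dosage in ESCs, 6 (40.0%) were apart and lower in 2abc and 0 higher, with a list median of -0.01 and 0 called. With scaling by the median, where all features were at 0.26, 4 were higher and 1 lower (median 0.29). The counts were 0 and 5 after quantile normalisation and after normexp correction, and 0 and 4 in the authors' deposited table. In array row 2 they were 6 and 7, so these counts depend on the setting. Ftx, a noncoding RNA near Xist, was at -4.07, -4.25 and -4.78 against -3.31, -3.56 and -3.30 (difference -0.98, SE 0.19, adjusted p = 0.0691). It was well above background in 1 of 3 2abc lines and passed the filter through the 2ac lines alone. The nuclear receptor Nr0b1, a naive pluripotency gene, differed by -0.25 (SE 0.08, adjusted p = 0.134) and the ubiquitin ligase Rlim by -0.28. Among the autosomes chromosome 3 spread most, from -0.061 in cl280.4 to 0.067 in cl6, with a median difference of -0.07.

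Pluripotency genes differed by small amounts between the genotypes. Of 24 naive genes 3 were apart (Jam2 higher, Nr0b1 and Klf4 lower), and of these and 14 core pluripotency genes 0 were called by limma. The list medians were 0.03 for the core and 0.02 for the naive genes, and the median SD over the 6 lines was 0.114 and 0.139, against 0.179 over all features. Klf4 was at 4.84, 4.91 and 4.80 against 5.04, 5.02 and 4.92. The difference of -0.15 (SE 0.08, adjusted p = 0.282) was small although the groups did not overlap. Pou5f1 ran from 5.45 in cl4 to 6.08 in cl324.13 and overlapped between the groups. Genes of the formative and primed epiblast varied more. Of 17, 4 were higher and 2 lower, among them the receptor kinase Epha4 (-0.84, -0.43 and -0.40 against -1.71, -1.86 and -1.01, difference 0.97, SE 0.24, adjusted p = 0.0877) and Foxd3 (0.96, 1.18 and 1.40 against 1.67, 1.69 and 1.88, difference -0.56, SE 0.13, adjusted p = 0.0809).

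Target genes of p53, the transcription factor that responds to DNA damage, had the largest share apart among the lists with more than 3 genes tested. Of 23 tested, 13 (56.5%) were higher in 2abc and 0 lower, where 11.7% and 21.7% of all features were, and none was called. The list's median difference was 0.25, against -0.04 over all features. Btg2, an antiproliferative gene, was at 1.35, 1.32 and 1.37 against 0.82, 0.83 and 0.91 (difference 0.49, SE 0.07, adjusted p = 0.0577). The apoptosome gene Apaf1 was at 0.14, 0.23 and 0.18 against -0.41, -0.21 and -0.24 (difference 0.47, SE 0.09, adjusted p = 0.0657), and the DNA polymerase gene Polk at 0.10, 0.15 and 0.21 against -0.50, -0.69 and -0.23 (difference 0.63, SE 0.13, adjusted p = 0.0702). The lines of each genotype were close together for Btg2, and less so for Polk, whose 2ac lines had an SD of 0.229. From cl6, Btg2 differed by 0.43 and Polk by 0.39. Polk had a second, dimmer kept probe with a difference of 0.01. The cell-cycle inhibitor Cdkn1a (0.33, adjusted p = 0.109), the p53 ubiquitin ligase Mdm2 (0.30, adjusted p = 0.121), the cell death gene Bbc3 (0.32, adjusted p = 0.147) and Trp53 itself (0.21, adjusted p = 0.205) were apart as well.

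The direction of the p53 counts was the same under other scalings. With quantile normalisation 12 members were higher and 0 lower, where 2977 and 3433 of all 22482 features were. In the values deposited by the authors the counts were 12 and 1, where 2724 and 2177 of 15484 features were. With scaling by the median they were 18 and 0, but there 9346 features were higher and 1005 lower, so this setting adds little. Against cl6 on the shared slide every 2abc line lay above in 17 of the 23 and below in 0. The median difference was 0.17, against -0.05 over all features. The 13 genes apart and higher lie above cl6 by definition, here and in the next count. Neither count is given over all features, so there is no share to read them against. Between the 2 lines of the first array row, cl280.4 was above cl6 in 20 of the 23. With cl6 left out 15 were higher and 2 lower, where 4692 and 6615 of all 22482 features were. After OHT the median difference was 0.22. Only 3 of the 13 were apart and higher there, where 40% of all features apart and higher in the untreated lines were.

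Mitosis genes and genes of H3K9 methylation leaned the same way with small differences. Of 20 mitosis genes 6 (30.0%) were higher and 0 lower (median 0.09), including the spindle checkpoint kinase Ttk (0.24, SE 0.07, adjusted p = 0.117) and the anaphase activator Cdc20 (0.25, adjusted p = 0.154). Of 15 genes for H3K9 methylation and its readers 5 (33.3%) were higher and 0 lower (median 0.06), namely Ehmt2, Trim28, Atf7ip, Morc2a and Wiz, by 0.16 to 0.26. After normexp background correction 1 was higher and 1 lower, so this count depends on the background correction. Of 11 H3K36 methylation genes 2 were higher and 1 lower, and of 17 other JmjC demethylases 4 and 2, led by the H3K27 demethylase Kdm6b (0.32, SE 0.09, adjusted p = 0.111). Among 14 DNA methylation genes Dnmt3l, the cofactor of the de novo methyltransferases, differed most. It was at 4.49, 3.88 and 4.27 against 3.48, 3.72 and 3.38 (difference 0.68, SE 0.18, adjusted p = 0.0906), with no overlap and 0.83 from cl6, while Dnmt3b lay between 4.10 and 4.16 in all lines. After OHT the Dnmt3l difference had the other sign (-1.1).

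**Figure D4:**
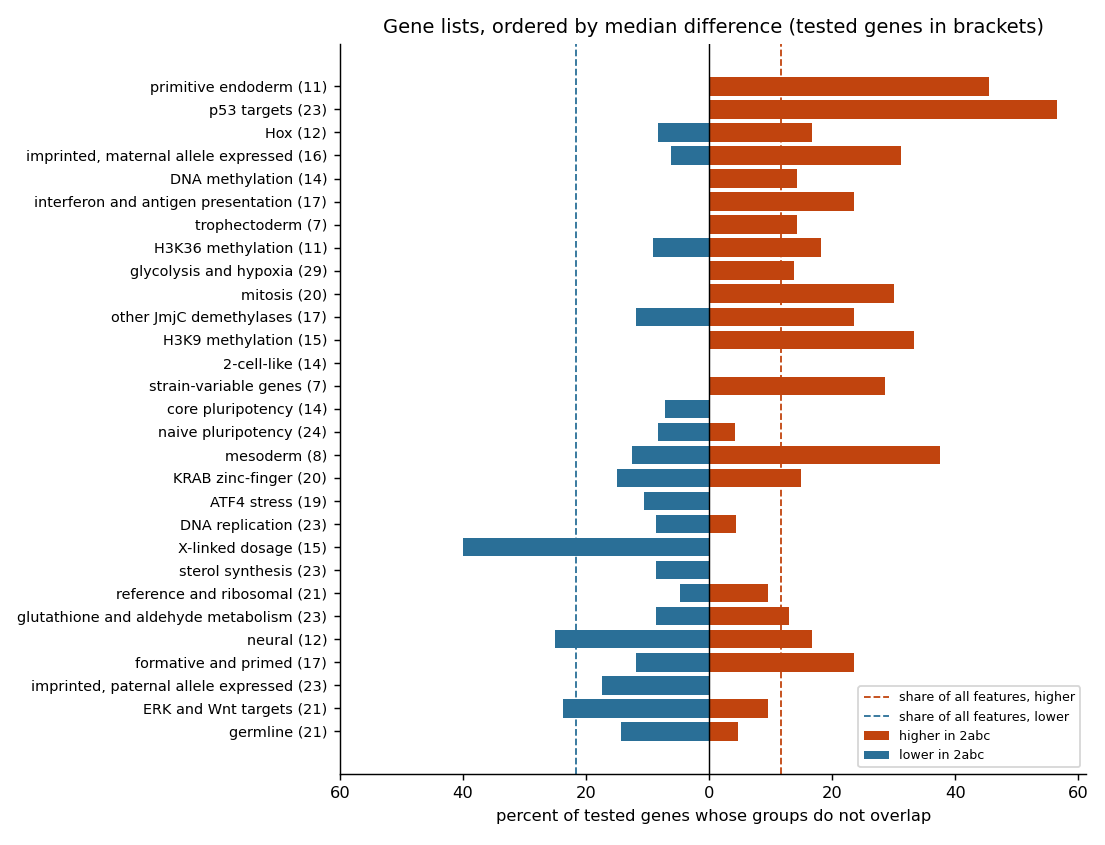
Bars give the percent of each list's tested genes that were apart and higher (right) or lower (left) in 2abc, with lists of 7 or more tested genes ordered by median difference, and broken lines mark the shares over all features, 11.7% and 21.7%. The p53 targets reach 56.5% higher and the X-linked dosage genes 40.0% lower (turned to 4 higher and 1 lower of 15 with scaling by the median), and the naive pluripotency genes stay below 10% on either side.

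Imprinted genes were counted by the allele they are expressed from. Of 16 genes expressed from the maternal allele 5 (31.2%) were higher and 1 lower in 2abc, with a median of 0.15, and of 23 expressed from the paternal allele 0 were higher and 4 (17.4%) lower, with a median of -0.20 that turned to 0.10 with scaling by the median. The second share is below that of all features, and the paternal counts moved with the setting: 3 were higher and 5 lower without cl6 (median -0.09), 5 and 7 in array row 2 (median -0.02), and 1 and 0 with scaling by the median. The maternal counts were 6 and 1, 6 and 2, and 14 and 0 in the same settings. In the last of these 9346 of 22482 features were higher and 1005 lower. Beside Ascl2, the maternal side held Gnas, a G-protein subunit (0.29, SE 0.08, adjusted p = 0.0975), Osbpl5 (0.48, adjusted p = 0.147), Grb10 (0.35, adjusted p = 0.202) and Cd81 (0.11, adjusted p = 0.367). The lower paternal genes were the Polycomb-related Sfmbt2 (-0.16, -0.03 and -0.20 against 0.29, 0.22 and 0.37, difference -0.42, SE 0.09, adjusted p = 0.0713), Nnat (-0.58, SE 0.18, adjusted p = 0.12), Peg12 (-0.43, SE 0.16, adjusted p = 0.159) and Kcnq1ot1 (-0.35, SE 0.11, adjusted p = 0.118). In the domain of Kcnq1ot1, the noncoding RNA whose paternal transcription silences neighbours that include Ascl2, the lines gave -2.92, -3.12 and -3.26 against -2.68, -2.82 and -2.74 for Kcnq1ot1 itself. The growth inhibitor Cdkn1c (difference 0.32), Slc22a18 (0.36) and Phlda2 (-0.06) of the same domain overlapped between the groups. Among the other listed maternal genes of chromosome 7, Tssc4 (0.14) and Ube3a (0.04) overlapped too, while Osbpl5 and Cd81, named above, were apart and higher. Against cl6 alone the medians were farther from 0. All 2abc lines were above cl6 in 10 of the 16 maternal genes and below it in 1 (median 0.29). They were below it in 16 of the 23 paternal genes and above in 0 (median -0.41). Of autosomal features 35.4% had all 2abc lines below cl6, and the share with all of them above it is not given. These values rest on 1 line, and without cl6 the medians were 0.165 and -0.09.

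Primitive endoderm genes were more often apart and higher than all features. Of 11, 5 were apart and higher and 0 lower, and 6 overlapped (median 0.31, 0 called), with basement membrane genes among them: Col4a2 at -0.45, -0.33 and -0.45 against -0.74, -1.08 and -1.62 (difference 0.74, SE 0.21, adjusted p = 0.109), Lamb1 (0.26) and Lamc1 (0.23). The factors Gata4 and Gata6 each differed by 0.31 (adjusted p = 0.128 and 0.118) and were dim, while Sox7 differed by -0.81 with overlapping groups. Targets of ERK and Wnt signalling, which the MEK and GSK3 inhibitors act on, went both ways. Of 21, 2 were higher and 5 (23.8%) lower, near the share over all features, with a median of -0.21 (0.09 with scaling by the median). Dusp6, a phosphatase induced by ERK, was at 0.46, -0.03 and -0.08 against 0.94, 0.93 and 0.77 (difference -0.76, SE 0.16, adjusted p = 0.0713, and -0.65 from cl6), and the Wnt targets Sp5 (-0.56, adjusted p = 0.086), Lef1 (-0.68, adjusted p = 0.154) and Notum (-0.31, adjusted p = 0.102) were lower too. Cdx1 (0.31, adjusted p = 0.0843) and Spry2 (0.33, adjusted p = 0.0919) were the higher ones. After OHT 4 of the 5 lower genes were again apart and lower.

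Genes of the 2-cell-like state varied between lines and not between genotypes. Of 14 tested, 0 were apart in either direction, and the median SD over the 6 lines was 0.593, against 0.179 over all features. Zscan4f was at 1.86, 2.27 and 2.88 in the 2abc lines and 3.04, 2.51 and 1.41 in the 2ac lines. Tmem92 was at 0.23, 0.86 and 1.59 against 1.31, 0.86 and -0.32, and Gm4340 at 1.63, 1.97 and 2.64 against 2.54, 2.06 and 0.89. In the untreated cultures the highest value was that of cl324.13 in 8 and of cl4 in 4, and the lowest that of cl6 in 11. Several members are close copies (Zscan4, Usp17l and Tcstv genes), so these are fewer than 14 independent readings. Relative to the median of the 6 lines, the list medians of the first-row lines were the lowest, -0.47 in cl280.4 and -0.77 in cl6. They were -0.07 to 0.48 in the lines of the second row. The part of the array row in this was not tested. After OHT cl324.13 was the highest in 0 of the 14 and cl4 in 8, so the leading line did not recur. There cl6 was the lowest in 10 of the 14, and cl280.4 was the highest in 4 and the lowest in 0. Pramel6 and Pramel7, genes of the ground state, spread as widely. Pramel6 was at -1.64, -0.48 and 0.41 against -1.64, -2.35 and -0.57, and Pramel7 at -2.19, -1.30 and -0.33 against -1.75, -2.48 and -0.93.

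**Figure D5:**
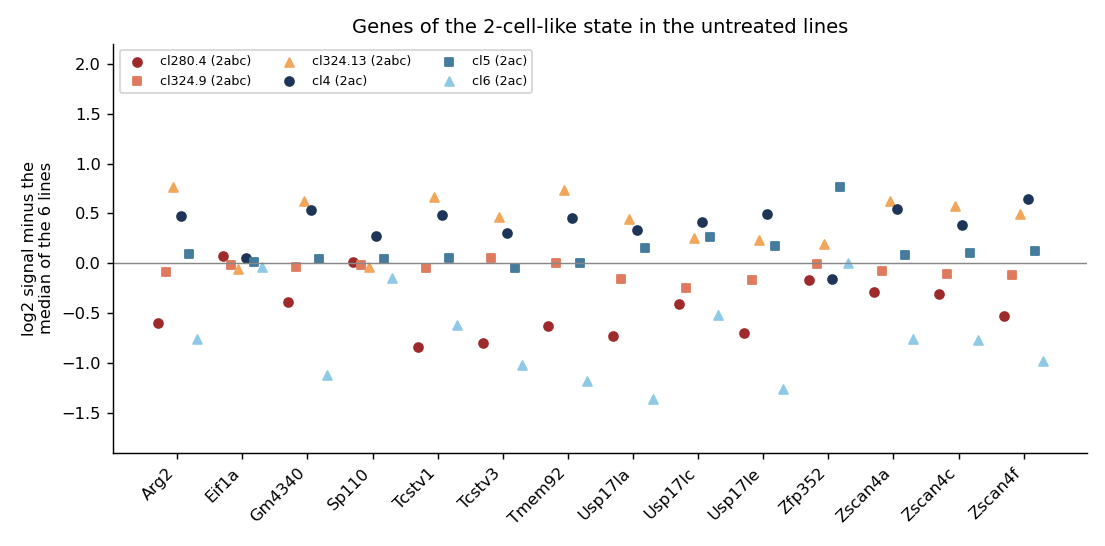
For 14 genes of the 2-cell-like state, each line's log2 signal minus the median of the 6 lines, with 1 point per untreated line. In most genes cl324.13 and cl4, from different genotypes, are on top and cl6 is at the bottom, while Eif1a and Sp110 vary little.

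The lines of 1 genotype also differed from each other. The SD over features of the difference between a pair of lines was 0.359 to 0.408 within 2abc, 0.352 to 0.43 within 2ac and 0.384 to 0.578 between genotypes, and 1.76 to 3.03% of features differed 2-fold or more within a genotype against 2.1 to 8.29% between. The closest pair was cl4 and cl6, which were on different slides and in different array rows, and the farthest cl324.13 and cl5. Line cl6 was nearer to cl324.9 (0.384) and cl280.4 (0.389), which shared its slide, than to cl5 (0.43), but cl324.13, on the same slide, was farther (0.445). The pair with a shared first number, cl324.9 and cl324.13, was not closer (0.379) than cl280.4 and cl324.9 (0.359).

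On each untreated array some genes lay far from their values in the other lines. Most strong ones stood above the other 5 lines: 70 named genes were 2-fold or more above all others in cl5, 47 in cl324.13, 36 in cl324.9, 18 in cl4, 17 in cl6 and 7 in cl280.4. The lines of the first array row, cl280.4 and cl6, had the fewest, and the part of the array row in this was not tested. The farthest were the zinc-finger gene Zfp952 in cl5 (1.21, against -2.88 to -2.70 elsewhere), the ceramidase Acer2 in cl4 (0.26, against -4.20 to -2.99), the receptor phosphatase Ptprt in cl324.13 (0.42, against -3.85 to -2.78), Ppp1r3g in cl280.4 (-0.33, against -4.28 to -3.38) and the chemokine receptor Ccr10 in cl324.9 (-0.14, against -4.26 to -2.73). Outside cl6, few of these kept a 2-fold gap to all other lines in the OHT array of the same line. These were 2 of the 70 in cl5, 2 of the 47 in cl324.13, 1 of the 36 in cl324.9, 0 of the 18 in cl4 and 0 of the 7 in cl280.4. Above all other lines by any amount there were 30, 4, 4, 9 and 4 of them in the same order. Zfp952 was at -2.59 in the OHT array of cl5 and Acer2 at -3.18 in that of cl4. In cl6, 14 of the 17 kept a 2-fold gap in the OHT array. Of the 17, 13 were X-linked, led by Gm364 (1.1, against -2.67 to -1.95, and 3.79 in the OHT array), Gm9 (1.75 and 4.38) and 1700013H16Rik (2.24 and 3.09). Genes far below all other lines were fewer. There were 14 in cl280.4, 12 of them on chromosome X and led by DXBay18, Xlr5b and Xlr5c, 7 in cl6, led by Eif2s3y, Ddx3y and Zfy1, and 0 to 4 in the others.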

How the data were processed

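Agilent 1-colour arrays were used. The spot intensity values deposited by the authors came, per the file headers, from Feature Extraction 11.0.1.1, with background subtraction and spatial detrending within each array. The authors' deposited table holds log2 values, with limma named per the submitters' processing notes and no version given. It was used as an alternative. Control and outlier spots (184 to 253 of 59305) were left out and spots of a probe averaged. Log2 processed signal minus each array's 75th percentile was analysed. Probes well above background on all arrays of at least 1 group were kept (29844), named through RefSeq accessions (GRCm38.p6 gene table, 27656 of 55681 probes). A gene was represented by its probe of highest mean. The array design is of build mm9, so probes were given no coordinates, and the promoter windows carry those of the RefSeq table. Untreated 2abc and 2ac lines were compared with limma 3.58.1 in R 4.3.3, with no covariate, 4 residual degrees of freedom and Benjamini-Hochberg adjustment over 22482 features. The procedure was tested on simulated data. P-values measure the spread between these lines and arrays.

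The samples, the 38 gene lists and the rule for naming genes were chosen with earlier results of these data known. Named are the Jmjd2 genes, up to 12 genes per direction (apart, and farthest from both the 2ac mean and cl6), called or largest members of each list, sex-linked genes and 3 genes per line and side. Other members given as examples, and the Xlr and Rhox sets, were chosen after their values were seen. No list was tested as a set. One gene is not reported here.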

Additional observations from a re-analysis of the deposited data

How the results depend on the processing

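The count of called features (2), and the share of called genes that were higher in 2abc (50%), moved with most settings. It was 0 with scaling by the median (8550 at an unadjusted p under 0.05 in limma), 0 without a filter on dim probes (5588), 0 with cl324.9 and cl324.13 counted as 1 sample (4541), 0 with the array row as a block (5871) and 0 in array row 2 only (6327). It was 1 after quantile normalisation (100% higher), 4 after normexp correction of the median spot signal, 9 with probes well above background on all 6 arrays, 5 in a fit on all 12 samples, 2 with the slide as a block against cl6 (100% higher), 4 with the slide as a block in 12 arrays (75% higher), 95 with an intensity trend and robust prior, and 286 (68.2% higher) in the authors' deposited table, which holds 15484 of the features and included both. Leaving out 1 line gave 0 to 469 calls, the latter without cl6 (18.3% higher). Ascl2 kept its sign in every setting run, with differences of 1.1 to 1.52 and adjusted p-values of 0.000439 to 0.384. Among features apart, the share higher was 35.1%, but 90.3% with scaling by the median, 46.4% after quantile normalisation and 55.6% in the authors' deposited table.

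The difference of Kdm4a (-0.01) turned to 0.29 with scaling by the median, 0.01 without cl6 and 0.02 in array row 2. With the slide as a block in 12 arrays Kdm4b turned to -0.02 and Kdm4c to -0.11. The median difference of chromosome X turned from -0.13 to 0.17 with scaling by the median and was -0.07 without cl6. Of 574 values of named genes under alternatives, 549 kept their sign and side of the threshold. Many of these genes were chosen for being apart in the same values, and only Ascl2 of them was called. The count therefore says little about how stable the results are. The cause of these changes was not tested. The array row settings and the normexp correction of median signals were chosen after seeing the data, since the files hold no mean spot signal, and the planned correction of that signal was not run.

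No paired analysis was possible because the 2abc and 2ac lines are different lines with no shared number. With 3 lines a side and 4 residual degrees of freedom, few differences could pass after adjustment over 22482 features. Some larger than the spread between lines did not, such as that of Mn1 (1.02, with SDs of 0.16 in 2abc and 0.08 in 2ac). A feature not called is therefore not shown to be equal. Dim probes are limited by a background that differed between array rows.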

Other observations

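Other gene groups were described with the same comparison. Of 17 interferon and antigen presentation genes 4 were apart and higher in 2abc and 0 lower, with a median difference of 0.12 and 0 called. The peptide transporter Tap1 was at -3.49, -3.39 and -3.25 against -4.32, -4.80 and -3.92 (difference 0.97, SE 0.22, adjusted p = 0.0785). It was well above background in 1 of 3 2ac lines and passed the filter through the 2abc lines alone. The class I gene H2-D1 differed by 0.30 (adjusted p = 0.139), and Wdfy1, which varies between mouse strains, was at 2.40, 2.48 and 2.36 against 2.08, 2.09 and 2.14 (difference 0.31, SE 0.08, adjusted p = 0.0844). Wdfy1 was apart in the OHT arrays as well (0.50), although the labels give 1 strain for all lines, and its 3 dimmer probes differed by -0.13, -0.13 and 0.19. Of 12 Hox genes 2 were higher (Hoxb4 by 1.03, adjusted p = 0.118, and Hoxc4 by 0.38, adjusted p = 0.114) and 1 lower (Hoxb9 by -0.47, adjusted p = 0.0746), and both higher ones were apart in the OHT arrays.

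Metabolic lists differed little. Of 29 glycolysis and hypoxia genes 4 were higher and 0 lower, with the neuronal enolase Eno2 at 0.76 (SE 0.20, adjusted p = 0.0896) the farthest. Of 23 sterol synthesis genes 0 were higher and 2 lower, of 19 ATF4 stress genes 0 and 2, of 23 DNA replication genes 1 and 2, and of 21 reference and ribosomal genes 2 and 1. Among 23 genes of glutathione and aldehyde metabolism the detoxifying enzymes Aldh2 (0.36) and Gpx3 (0.54) and the retinaldehyde dehydrogenase Aldh1a3 were higher, and Gclm (-0.43) and Aldh1a1 (-0.53) lower. Among 20 KRAB zinc-finger genes 3 were higher and 3 lower, with Zfp932 at 2.74, 2.41 and 2.39 against 1.75, 1.64 and 1.77 (difference 0.79, SE 0.12, adjusted p = 0.0577). Of 21 germline genes 1 was higher and 3 lower, of 12 neural genes 2 and 3, of 8 mesoderm genes 3 and 1, of 7 trophectoderm genes 1 (Ascl2) and 0.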
